A study of Mus musculus with 6 samples.

Results

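The aminoacyl-tRNA synthetases and the scaffold proteins that hold some of them together were followed in fibroblast pools edited at the pyruvate carboxylase gene. Each of 38 gene symbols on the list matched 1 row, by exact Ensembl identifier, among the 16540 genes of the expression table. They comprise 19 genes of cytosolic enzymes, 16 of mitochondrial enzymes and 3 of scaffolds. The list was drawn up by symbol and not by level, and all 38 genes passed the filter on low values, which kept genes reaching 10 normalised counts in 2 or more libraries.

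RNA came from NIH-3T3 cells, an established mouse fibroblast line of NIH/Swiss origin. The edited groups expressed Cas9 with the guide PC sg2 (2 libraries) or PC sg5 (2 libraries), and the control group expressed Cas9 with the guide R26 sg1 (2 libraries). All 3 groups received guide and Cas9 by lentivirus, went through puromycin (2 ug/mL) and were kept as polyclonal pools, so edited and unedited cells were measured together. All spent 48 h in DMEM with 0.2 mM glutamine and 10% dialyzed serum, so the low glutamine is shared by the control and no group had another level. The labels do not say if libraries with the same guide are separate cultures, so p-values measure the spread between these libraries, which may be technical. There is a single control guide, so a trait of its libraries cannot be told apart from an effect of PC editing. An SD given for all PC libraries spans both PC guides.

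Aminoacyl-tRNA synthetases join each amino acid to its tRNA and so supply the ribosome. Cytosol and mitochondria mostly use separate enzymes encoded by different nuclear genes, and the mitochondrial ones are named with a final 2. Several cytosolic enzymes sit in a multisynthetase complex around the scaffolds encoded by Aimp1, Aimp2 and Eef1e1. The others are called free here, meaning only that they are outside this complex. When tRNAs are left uncharged, the kinase GCN2 (gene Eif2ak4) is activated and translation of the transcription factor ATF4 increases. Many cytosolic synthetase genes are known ATF4 targets.

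The libraries held 22895172 to 71710049 recovered reads, the fewest in PC sg5 replicate 2, and 3 reads there correspond to 6.41 normalised counts, a limit that covers counting error only. The targeted gene Pcx had 316 and 375 normalised counts in PC sg2 libraries and 713 and 716 in PC sg5 libraries, against 2914 and 3015 in the control. All 8 fibroblast markers were in the table, with summed levels of 510513 to 530787 normalised counts in the PC libraries and 1224500 to 1274700 in the control. Of 5 epithelial, 5 leukocyte, 4 endothelial and 4 muscle markers, 1, 4, 2 and 1 had a row, and Epcam, Ptprc, Cdh5 and Myog had none. The leukocyte markers summed to 835 to 896 normalised counts in the PC libraries and 1316 to 1409 in the control. The summed epithelial and muscle markers were also lower in the PC libraries (8.55 to 19.1 and 11.7 to 26.3, against 57.4 to 58.7 and 72.3 to 90.6), while the endothelial sums overlapped (32.4 to 53.0 in PC and 36.3 to 45.5 in control libraries). The part of these shifts in the results was not tested. In such bulk RNA, more cells with a transcript and more transcript per cell cannot be told apart.

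Cytosolic synthetase genes rose almost as a block in the PC pools, and the glutaminyl enzyme gene Qars alone among them fell. For both PC guides against control, 18 of 19 cytosolic genes were higher and 1 was lower, where 67.9% of the 16526 genes tested were called, 34.3% higher and 33.6% lower. All 3 scaffold genes rose. Mitochondrial genes were mixed, with 9 of 16 higher, 4 lower and 3 not past the threshold. The median log2 fold change was 0.58 for cytosolic, 0.22 for mitochondrial and 1.10 for scaffold genes, against -0.01 over all genes tested. Calls rest on limma with a Benjamini-Hochberg adjusted p under 0.05 over all genes tested, with log2 fold changes on the log2(normalised count + 1) scale. In 30 of the 38 genes all 4 PC libraries lay above both controls, where 36.6% of all genes did, and in 5 all lay below, where 36.6% did. The cytosolic counts of 18 higher and 1 lower and the scaffold count of 3 higher were the same under all 16 alternative settings.

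**Figure D1:**
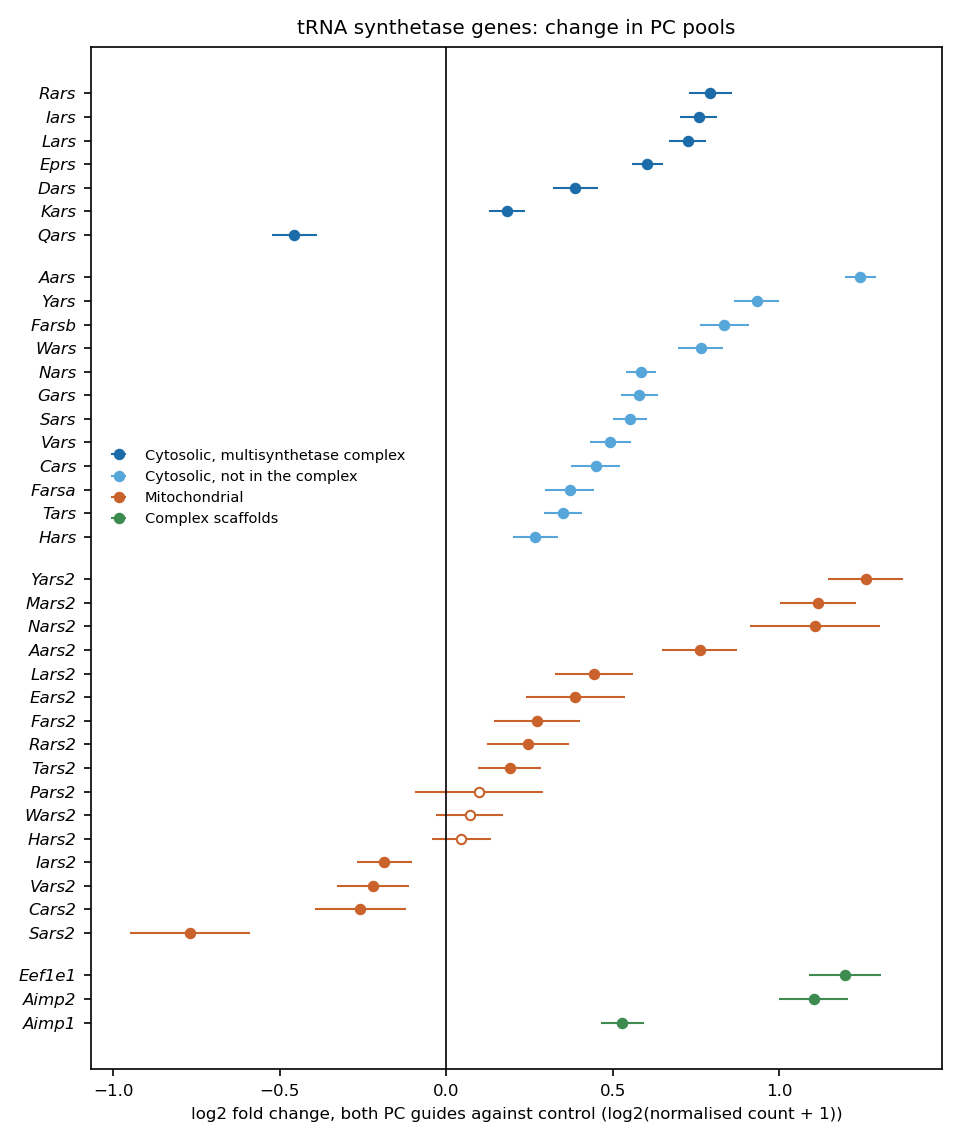
Log2 fold change of each gene for both PC guides against control (4 PC and 2 control libraries), with bars for the 95% confidence interval from limma and open symbols for genes not past the threshold. Of the cytosolic genes 18 lie right of 0 and Qars lies left of it at -0.46, while the mitochondrial genes spread from Sars2 at -0.77 to Yars2 at 1.26.

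The alanyl enzyme gene Aars moved furthest among cytosolic genes. Aars (ENSMUSG00000031960, GRCm38 chromosome 8, 111033144 to 111057664, plus strand) had 55140 and 56273 normalised counts in PC sg2 libraries and 52845 and 52976 in PC sg5 libraries, against 23397 and 22492 in the control. Its mean was 54309 ± 1680 (SD, n = 4) in PC and 22944 ± 640 (SD, n = 2) in control libraries, a log2 fold change of 1.24 ± 0.02 (SE), with an adjusted p of 2.65e-21. The edited and control libraries lay far apart, and both PC sg5 libraries were below both PC sg2 libraries. Exons of the neighbour Exosc6 cover 14.3% of the exon bases of Aars, and the library kit does not mark the strand, so reads there cannot be told apart. Exosc6 itself was not analysed here.

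Yars, for the tyrosyl enzyme (chromosome 4, 129189760 to 129219607, plus strand), came next with 9989 and 9328 normalised counts in PC sg2 and 9666 and 9375 in PC sg5, against 5094 and 4956 in the control. That is a log2 fold change of 0.93 ± 0.03 (SE), or 191% of the control mean. Farsb encodes the beta subunit of cytosolic phenylalanyl-tRNA synthetase, which pairs with the alpha subunit from Farsa. Farsb (chromosome 1, 78417975 to 78488897, minus strand) had 4739, 4868, 5032 and 5106 normalised counts in the PC sg2 and PC sg5 libraries, against 2745 and 2792 in the control. Farsa (chromosome 8, 84856989 to 84869257, plus strand) had 5019, 4760, 4806 and 4914 in the same PC libraries, against 3824 and 3720 in the control. Both genes rose, with log2 fold changes of 0.83 ± 0.04 and 0.37 ± 0.04 (SE). The 2 genes thus moved by different amounts. The ratio of Farsb to Farsa was 0.94 to 1.05 in the PC libraries and 0.72 and 0.75 in the control. Per annotated exon length it was 1.64 to 1.81 in the PC libraries and 1.24 and 1.30 in the control. Which gene had the higher level therefore depends on the scaling by length. The groups did not overlap in either ratio, and the share among ratios of other genes was not computed. Exons of Sgpp2, which had a mean of 46.2 normalised counts in PC and 30.8 in control libraries, cover 9.47% of Farsb.

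Wars, whose tryptophanyl enzyme is known to be induced by interferon, had 7953, 7910, 7822 and 7631 normalised counts in the PC sg2 and PC sg5 libraries, against 4723 and 4505 in the control. Its log2 fold change was 0.76 ± 0.03 (SE), at chromosome 12, 108860030 to 108894174, minus strand. Nars, for the asparaginyl enzyme, had the highest level per length of the list, with means of 7903 normalised counts per kilobase of exon in PC and 5272 in control libraries, and rose by 0.58 ± 0.02. The free enzymes Gars, Sars, Vars, Cars, Tars and Hars, named for glycine, serine, valine, cysteine, threonine and histidine, had log2 fold changes of 0.58, 0.55, 0.49, 0.45, 0.35 and 0.27. All 12 free cytosolic genes rose, where 34.3% of all genes tested were called higher. Their median was 0.57 and their adjusted p-values by limma were at most 2.31e-07.

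Among the 7 enzymes of the multisynthetase complex on the list, 6 rose and 1 fell, with a median of 0.60. Of all genes tested, 34.3% were called higher and 33.6% lower. The cytosolic methionyl enzyme gene is not on the list and was not examined. Rars, for arginine (chromosome 11, 35808381 to 35834506, minus strand), had 13114, 13407, 14020 and 13252 normalised counts in the PC sg2 and PC sg5 libraries, against 7978 and 7551 in the control. Iars, for isoleucine (chromosome 13, 49682100 to 49734267, plus strand), had 19345, 19797, 19703 and 18656 in the PC libraries, against 11525 and 11389 in the control. Lars, whose leucyl enzyme also senses leucine for mTORC1, had 26803, 26455, 27745 and 25763, against 16201 and 16089 in the control. In these 3 genes every PC library was above both controls, where 36.6% of all genes tested had that pattern. Their log2 fold changes were 0.79, 0.76 and 0.72, each with an SE of 0.03. Eprs, a single gene for a fused glutamyl and prolyl enzyme, had 34930, 34029, 34702 and 34260 normalised counts in the PC libraries, against 22884 and 22524 in the control, a log2 fold change of 0.60 ± 0.02 (SE).

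Dars, for aspartate, had 6667, 6727, 6563 and 6596 normalised counts in the PC sg2 and PC sg5 libraries, against 5196 and 4956 in the control (log2 fold change 0.39 ± 0.03, SE). Aspartate is made from oxaloacetate, the product of pyruvate carboxylase. Kars, for lysine, had the smallest rise of the cytosolic genes, with 12554, 12532, 12123 and 11964 in PC libraries, against 10762 and 10901 in the control (0.18 ± 0.03, SE). Kars and Gars each encode both the cytosolic and the mitochondrial form of their enzyme, and Gars had 19046, 18482, 18680 and 17904 normalised counts in the PC libraries, against 12586 and 12219 in the control. An annotated pseudogene, Kars-ps1, has no row of its own in the table, so its share of the Kars reads is uncertain.

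Qars, which encodes the enzyme that charges tRNA with glutamine, went the other way. Qars (ENSMUSG00000032604, chromosome 9, 108507706 to 108515941, plus strand) had 5628 and 5349 normalised counts in PC sg2 libraries and 5569 and 5481 in PC sg5 libraries, against 7667 and 7442 in the control. Every edited library was below both controls, where 36.6% of all genes tested had that pattern. The mean was 5506 ± 121 (SD, n = 4) in PC and 7554 ± 159 (SD, n = 2) in control libraries, a log2 fold change of -0.46 ± 0.03 (SE; adjusted p by limma 4.66e-11), and 72.9% of the control level was left. No other annotated gene overlaps the exons of Qars. Under the 16 alternatives its log2 fold change stayed between -0.50 and -0.41.

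**Figure D2:**
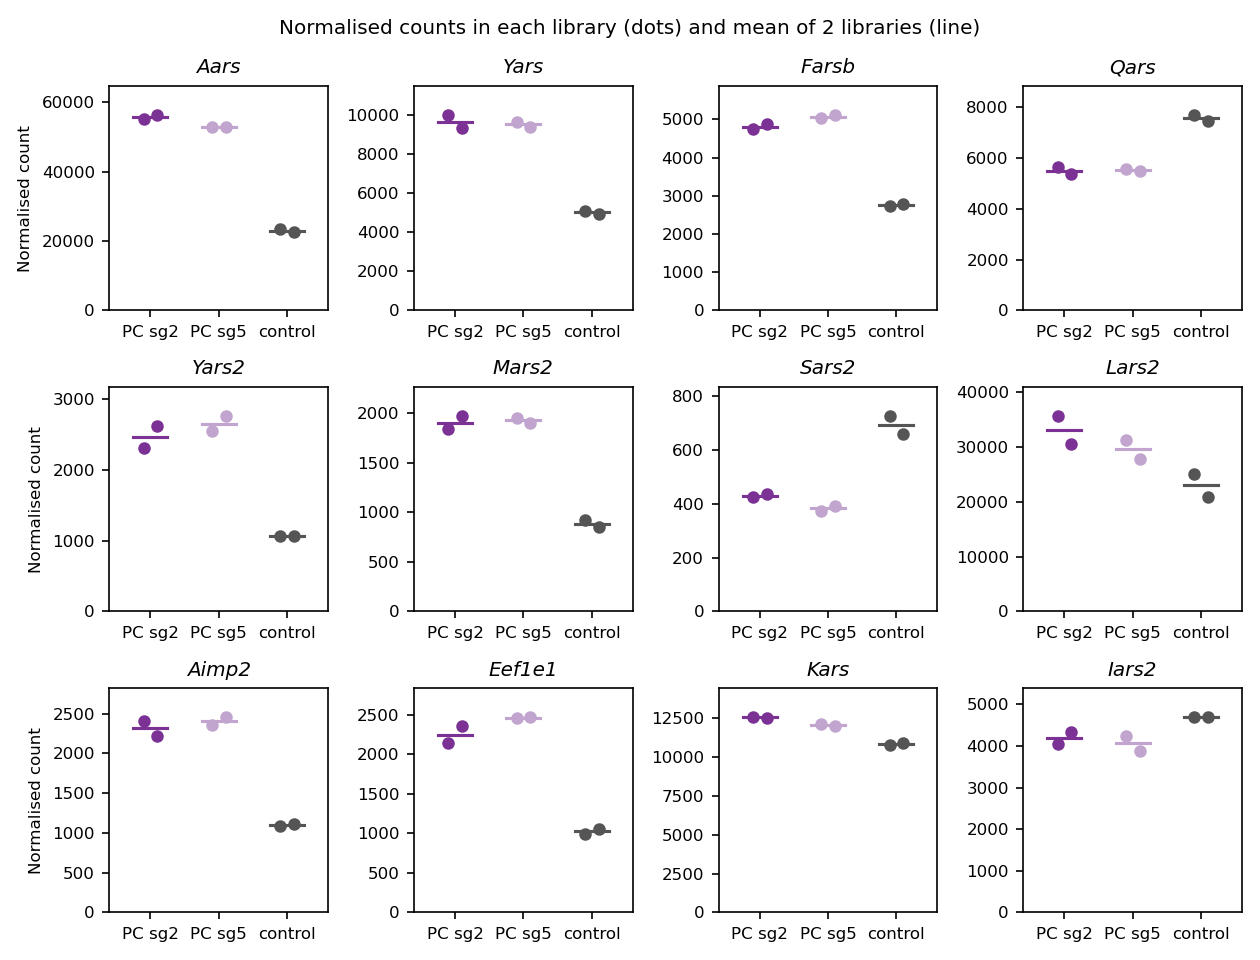
Normalised counts of 12 genes in every library (dots), with the mean of the 2 libraries of each group as a line, on axes that start at 0. Edited libraries stand above the control in Aars, Yars, Farsb, Kars, Yars2, Mars2, Lars2, Aimp2 and Eef1e1 and below it in Qars, Sars2 and Iars2. Of all genes tested, 36.6% lay wholly above and 36.6% wholly below the control. Lars2 shows the widest gap between the 2 libraries of a group.

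By the 2 catalytic families of synthetases, 8 of 9 cytosolic class I genes rose with a median of 0.72 (Eprs counted by its glutamyl part). Of the cytosolic class II genes 10 of 10 rose, with a median of 0.47. Of all genes tested, 34.3% were called higher. Mitochondrial class I and class II genes had medians of 0.24 and 0.19, with 5 of 9 and 4 of 7 called higher. These medians are descriptions without a test. The level of a cytosolic gene in the control and its change were little related (Spearman's rho 0.10 across 19 genes, which share the same 6 libraries).

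The promoters of some cytosolic genes hold the letters of the C/EBP-ATF composite element, which ATF4 is known to bind. In windows from 250 bases before to 50 after the RefSeq gene start (GRCm38.p6), TGATGNAA was searched on both strands. Promoters of 29 of the 38 genes were available. The element was found in 5 of 12 cytosolic promoters (Aars, Gars, Iars, Tars and Yars), in 0 of 14 mitochondrial and in 0 of 3 scaffold promoters, and in 3.97% of 32851 promoters in all. These 5 genes were picked for having a match, and the match of each that is nearest to the start is shown. It begins 9, 7 and 3 bases past the start in Aars, Iars and Yars, and 30 and 15 bases before it in Gars and Tars. Each window has 30 bases on the gene's strand, with the match in capitals.
Aars, chr8:111033840-111033869: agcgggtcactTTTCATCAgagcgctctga
Gars, chr6:55037960-55037989: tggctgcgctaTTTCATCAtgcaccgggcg
Iars, chr13:49682126-49682155: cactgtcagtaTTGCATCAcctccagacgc
Tars, chr15:11399655-11399684: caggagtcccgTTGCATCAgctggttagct
Yars, chr4:129189895-129189924: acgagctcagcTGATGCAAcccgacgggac

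In Yars the match reads in the gene's direction and in the other 4 windows it reads on the opposite strand. The stretch upstream of Tars is shown in full since it holds this element near the start and an NRF1 motif further up.
Tars upstream, chr15:11399666-11399908, minus strand: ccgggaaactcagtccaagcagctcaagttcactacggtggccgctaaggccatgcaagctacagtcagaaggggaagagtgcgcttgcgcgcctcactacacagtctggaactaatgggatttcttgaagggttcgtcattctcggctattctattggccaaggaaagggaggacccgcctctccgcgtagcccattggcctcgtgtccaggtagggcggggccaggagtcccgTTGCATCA

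Cytosolic genes with the element had a median log2 fold change of 0.76 and the 7 without it 0.39, but the ranges overlapped: Tars with it had 0.35, and Farsb and Eprs without it had 0.83 and 0.60. Cars, Hars, Lars, Nars, Rars, Vars and Wars had no promoter to search and are in neither group. Their log2 fold changes ran from 0.27 (Hars) to 0.79 (Rars). An E-box, CACGTG, which Myc and Max are known to bind, was found in 7.15% of all promoters. It was found in Aars, Farsb, Iars and Tars of the cytosolic genes and in Ears2 of the mitochondrial ones. Cytosolic genes had a median of 0.80 with the E-box and 0.47 without it. Aars, Iars and Tars hold both the E-box and the C/EBP-ATF element. The motif of the mitochondrial biogenesis factor NRF1 (GCGCA and GCGC with any base between) was found in 4.60% of all promoters. Farsb, Kars, Tars, Iars2, Mars2 and Eef1e1 had it. Cytosolic genes had a median of 0.35 with this motif and 0.58 without it. The differences between these medians were not tested for any of the 3 motifs. A match is a description of letters and not a site, and none of the 3 motifs overlapped another in these promoters.

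Mitochondrial synthetase genes did not move as a block. Yars2, for tyrosine (chromosome 16, 16302965 to 16309640, plus strand), rose most, with 2309 and 2617 normalised counts in PC sg2 and 2544 and 2753 in PC sg5, against 1066 and 1065 in the control. Its log2 fold change was 1.26 ± 0.05 (SE). Mars2, the mitochondrial methionyl enzyme gene (chromosome 1, 55237177 to 55248470, plus strand), had 1841, 1971, 1957 and 1902 normalised counts in the PC libraries, against 923 and 848 in the control (1.12 ± 0.06, SE). Nars2, for asparagine (chromosome 7, 96951505 to 97064758, plus strand), had 718, 704, 674 and 879 in the PC libraries, against 336 and 350 in the control (1.11 ± 0.09, SE). Aars2, for alanine (chromosome 17, 45506841 to 45520843, plus strand), had 1825, 1680, 1881 and 1911, against 1107 and 1045 in the control (0.76 ± 0.05, SE). In these 4 genes, the largest rises among the mitochondrial ones, all PC libraries lay above both controls, where 36.6% of all genes tested did.

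Sars2, the mitochondrial seryl enzyme gene, fell furthest of the whole list. Sars2 (ENSMUSG00000070699, chromosome 7, 28741992 to 28753871, plus strand) had 425 and 435 normalised counts in PC sg2 libraries and 374 and 391 in PC sg5 libraries, against 726 and 660 in the control. The log2 fold change was -0.77 ± 0.09 (SE; adjusted p by limma 7.13e-08), and 58.6% of the control mean was left. Cars2, Vars2 and Iars2 fell less, with log2 fold changes of -0.26, -0.22 and -0.19. Cars2 was no longer past the threshold without control replicate 2 (adjusted p by limma 0.0731). Rab3gap2, which rose by 0.38, covers 22.9% of the exon bases of Iars2, and Naxd, which fell by 0.44 on the log2 scale, covers 5.83% of those of Cars2. Exons of Gm20483 cover 8.52% of Vars2, and the neighbours Hars and Hars2 overlap over 7.97% of Hars and 4.56% of Hars2.

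Smaller rises were seen in Ears2 (0.39), Fars2 (0.27), Rars2 (0.24) and Tars2 (0.19), and without the intensity trend Tars2 missed the threshold (adjusted p by limma 0.0512). Exons of Nrn1, with a log2 fold change of -1.10, cover 8.72% of Fars2. Hars2, Wars2 and Pars2 did not pass, with log2 fold changes of 0.05, 0.07 and 0.10 and limma adjusted p-values of 0.361, 0.210 and 0.352. Without the 50 most abundant genes in the scaling, Wars2 passed (adjusted p by limma 0.0447). Their 95% confidence intervals were -0.04 to 0.13, -0.03 to 0.17 and -0.09 to 0.29.

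Lars2, for mitochondrial leucine charging, stood apart from the other mitochondrial genes in level. It had 35632 and 30485 normalised counts in PC sg2 and 31303 and 27850 in PC sg5, against 25090 and 20958 in the control, a log2 fold change of 0.44 ± 0.06 (SE). In the control that is 2076 normalised counts per kilobase, where the other 15 mitochondrial genes had at most 563. Replicate 1 exceeded replicate 2 by more than 10% in every group for Lars2, the only one of the 38 genes with that pattern. The summed level of all 16 mitochondrial genes was 53512 to 60523 normalised counts in PC and 42584 to 46933 in control libraries, and without Lars2 it was 24891 to 25663 and 21626 to 21842.

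**Figure D3:**
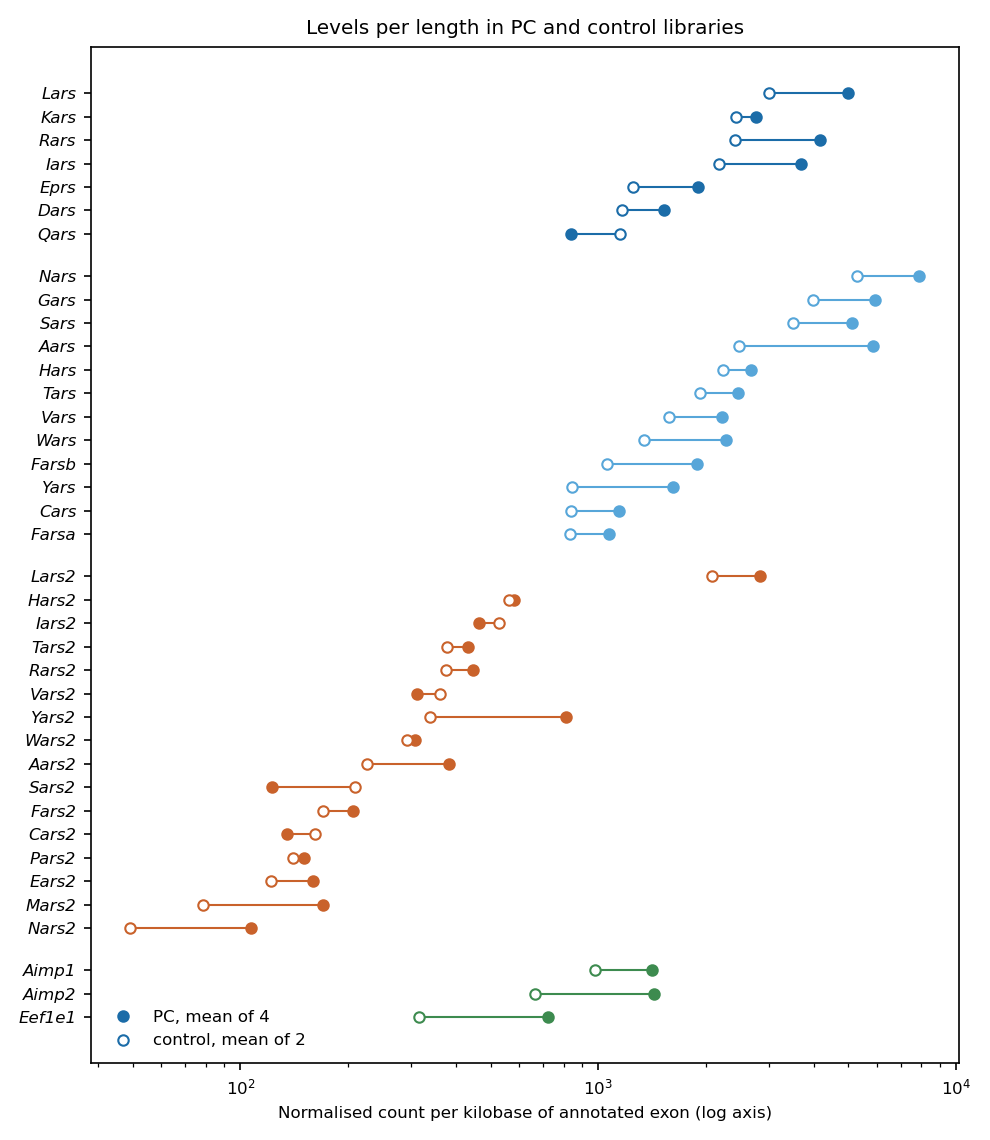
Mean normalised count per kilobase of annotated exon (log axis) in PC (filled, 4 libraries) and control (open, 2 libraries) for each gene, grouped as cytosolic in the complex, cytosolic outside it, mitochondrial and scaffold. Cytosolic genes run from 831 to 5272 in the control, and mitochondrial genes other than Lars2 from 49.2 to 563.

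Cytosolic genes were expressed at higher levels per length, with a median of 2453 normalised counts per kilobase in PC and 1924 in control libraries, than mitochondrial genes, with 309 and 259. Exon length here is the union over all annotated transcripts, which lowers the value of genes with long unused exons. The 19 cytosolic genes together had 313985 to 323378 normalised counts in PC libraries and 203151 to 207188 in control libraries.

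Whether an enzyme and its mitochondrial partner moved alike was asked within each library, from the log2 ratio of their counts. Among 16 such pairs the ratio was higher in all 4 PC libraries than in both controls for 12 and lower for 2, and the groups overlapped for 2. Eprs was paired with both Ears2 and Pars2, and Fars2 with both Farsa and Farsb, so the pairs are not all separate. Of single genes, 36.6% lay wholly above and 36.6% wholly below the control, and the share among ratios of other gene pairs was not computed. The widest gap was between Sars and Sars2, whose log2 ratio was 5.96 and 5.92 in PC sg2 and 6.16 and 6.04 in PC sg5, against 4.65 and 4.75 in the control, a difference of 1.32. Iars and Iars2 followed with a difference of 0.94, then Vars and Vars2 and Cars and Cars2, both with 0.71. In these 4 pairs the cytosolic gene rose while the mitochondrial one fell. The exact permutation test gave p = 0.133 for each of the 14 pairs whose groups did not overlap, the smallest that 4 against 2 libraries allow in a two-sided test (Benjamini-Hochberg adjusted 0.152 over 16 pairs), so this test cannot reach 0.05.

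The 2 pairs that went the other way were asparagine and tyrosine. The log2 ratio of Nars to Nars2 was 5.56, 5.61, 5.69 and 5.30 in the PC libraries, against 6.11 and 6.02 in the control, since Nars2 rose more. The ratio of Yars to Yars2 was 2.11, 1.83, 1.93 and 1.77 in the PC libraries, against 2.26 and 2.22 in the control. For alanine both genes rose, Aars by 1.24 and Aars2 by 0.76, and the difference of their log2 ratio was 0.48. Farsa with Fars2 (0.10) and Lars with Lars2 (0.28) were the pairs with overlapping groups.

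**Figure D4:**
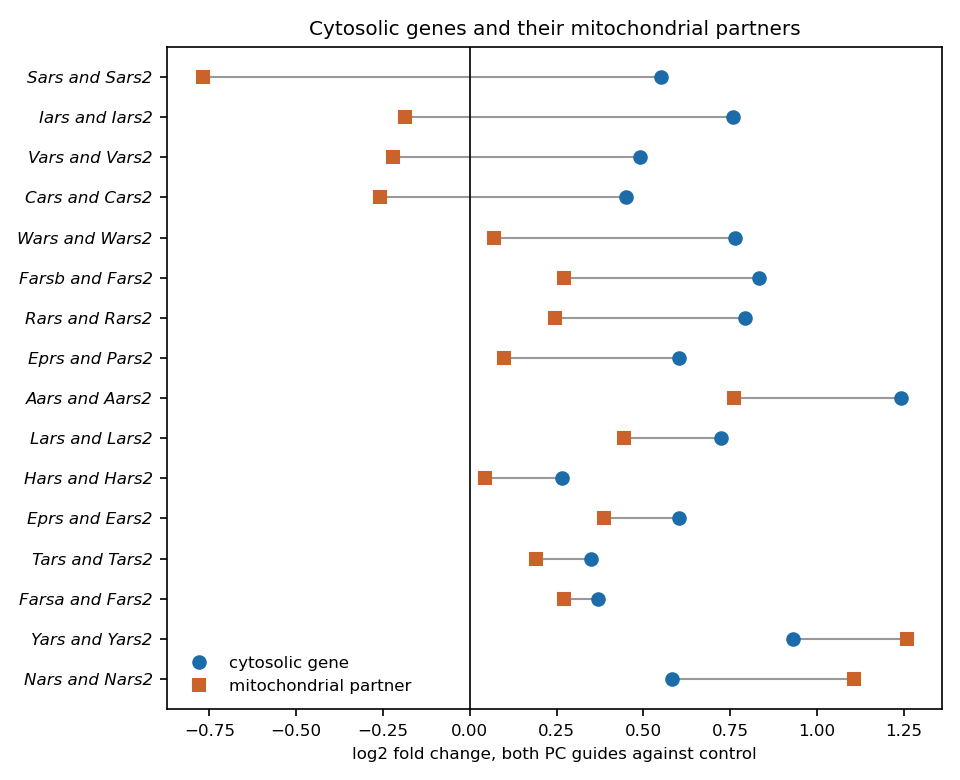
Log2 fold change for both PC guides against control of each cytosolic gene (blue dots) and its mitochondrial partner (orange squares), joined by a line, with pairs ordered by the difference. Sars and Sars2 are farthest apart, and for Nars and Nars2 and Yars and Yars2 the mitochondrial gene lies to the right.

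The 3 scaffold genes were above both controls in every edited library, where 36.6% of all genes tested had that pattern. Eef1e1, for the smallest scaffold (chromosome 13, 38644207 to 38659058, minus strand), had 2143 and 2358 normalised counts in PC sg2 and 2461 and 2471 in PC sg5, against 995 and 1059 in the control (log2 fold change 1.20 ± 0.05, SE). Aimp2, which ties the complex together (chromosome 5, 143902704 to 143909847, minus strand), had 2411, 2224, 2356 and 2454 in the PC libraries, against 1084 and 1112 in the control (1.10 ± 0.05, SE). Aimp1, whose product is also secreted as a cytokine-like fragment (chromosome 3, 132660499 to 132684370, minus strand), had 7708, 8027, 7838 and 8065, against 5432 and 5534 in the control (0.53 ± 0.03, SE). Exons of Eif2ak1 cover 29.4% of those of Aimp2, and Eif2ak1 had means of 2433 normalised counts in PC and 2523 in control libraries (log2 fold change -0.05, not past the threshold). Aimp2 and Eef1e1 had larger log2 fold changes than any of the 7 complex enzymes on the list, the highest of which was Rars with 0.79.

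Each guide was also set against the same control libraries, so the 2 comparisons are not independent. With PC sg2, 30 of 38 genes were higher, 5 lower and 3 not past the threshold, where 64.5% of all genes tested were called, 32.9% higher and 31.6% lower. With PC sg5 the counts were also 30, 5 and 3, where 64.5% of all genes were called, 32.6% higher and 31.8% lower. The cytosolic median was 0.57 with PC sg2 and 0.56 with PC sg5, and the mitochondrial median was 0.18 and 0.22. Qars had log2 fold changes of -0.46 with PC sg2 and -0.45 with PC sg5, and Sars2 had -0.69 and -0.85.

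The direct test of PC sg5 against PC sg2 called 0 of the 38 genes by limma, where 0.242% of all genes tested were called (0.139% higher and 0.103% lower), and edgeR and DESeq2 called 0 as well. At an unadjusted p under 0.05 there were 3, namely Aars (-0.07), Lars2 (-0.16) and Eef1e1 (0.13), named after their values were seen, which is 7.89% of the 38 where 10.6% of all genes tested reached that p. Differences of PC sg5 minus PC sg2 lay between -0.07 and 0.08 for cytosolic genes, with 95% confidence bounds no further out than -0.13 and 0.16. For mitochondrial genes they lay between -0.17 and 0.13, with bounds no further out than -0.38 and 0.34. Pcx itself differed between the guides by 1.05 ± 0.08 (SE) on the log2 scale, with an average of 715 normalised counts in PC sg5 and 345 in PC sg2 libraries.

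**Figure D5:**
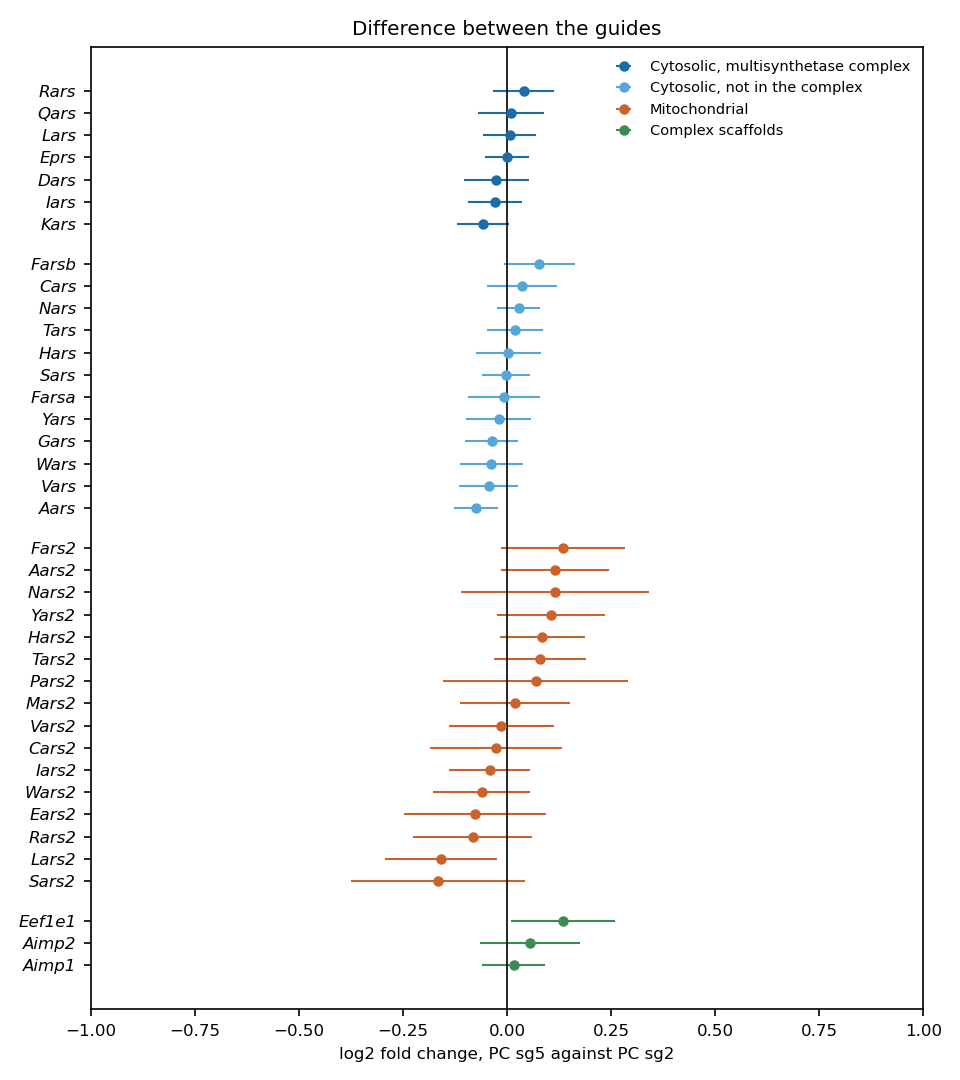
Log2 fold change of PC sg5 against PC sg2 for each gene (2 libraries each), with the 95% confidence interval from limma. The cytosolic genes lie between -0.07 and 0.08, and the intervals of the mitochondrial genes are wider.

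Other genes that serve tRNA charging were taken from a list of 25 partners, of which 14 rose, 3 fell and 8 did not pass for both guides against control (median 0.25), where 34.3% of all genes tested were called higher and 33.6% lower. Xpot, the exporter of tRNA from the nucleus, rose by 1.21 ± 0.03 (SE), with a mean of 17091 normalised counts in PC and 7375 in control libraries. Mitochondria make glutaminyl-tRNA by first charging with glutamate through Ears2 and then amidating it with the complex of Gatb, Gatc and Qrsl1. Of these, Gatc rose by 1.06 ± 0.05, Qrsl1 by 0.43 ± 0.08 and Ears2 by 0.39 ± 0.07, while Gatb had 0.06 and did not pass. Of the mitochondrial elongation factor genes, Gfm1 and Tsfm rose by 0.78 and 0.64, while Tufm had -0.08 and did not pass (adjusted p by limma 0.0627). Gfm2, another of the partners, rose by 0.25. With PC sg5 alone Tufm fell by 0.14 on the log2 scale (adjusted p by limma 0.00821), and with PC sg2 it had -0.02 and did not pass. Tufm and Gfm2 and the 3 that fell for both guides, Eef1a1 (-0.23), Eef1b2 (-0.14) and Gtpbp3 (-0.19), were named after their values were seen. The other Eef1 genes among the partners, Eef1d and Eef1g, rose by 0.33 and 0.26 and were also named afterwards. Under quantile normalisation Eef1b2 had 0.03 and did not pass.

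Genes around the response to uncharged tRNA moved in both directions. Atf4 averaged 23871 ± 280 normalised counts (SD, n = 4) in PC and 12942 ± 44.0 (SD, n = 2) in control libraries, a log2 fold change of 0.88. The ATF4 targets Asns (0.60), Chac1 (2.22), Trib3 (2.42) and Ddit3 (2.87) rose as well, and Myc rose by 2.89. Eif2ak4, the gene of the kinase that senses uncharged tRNA, fell to a mean of 2733 ± 92.9 normalised counts (SD, n = 4) in PC libraries, against 4703 ± 12.6 (SD, n = 2) in the control, a log2 fold change of -0.78. Asns makes asparagine, the amino acid that Nars loads, from aspartate with glutamine as the nitrogen donor.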

How the data were processed

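Poly-A-selected RNA went into the NEBNext Ultra kit, per the labels' protocols, and this kit does not mark the strand. The authors' deposited signal is gene-level counts scaled by library size factors, in 1 table of 6 libraries. Tools listed in the submitters' processing notes are DESeq2, featureCounts, STAR, Trimmomatic and bcl2fastq 2.17, with build GRCm38, while their settings, the annotation and the strand option were not given in the sources used here. In every library 100% of values above 0 were whole multiples of 1 step (tolerance 0.01), so whole reads were recovered.

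Symbols, exon lengths and exon overlaps came from GENCODE M21 (GRCm38), and promoters from RefSeq (GRCm38.p6). The promoters of Cars, Hars, Lars, Nars, Rars, Vars, Wars, Hars2 and Pars2 were not used here.

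Values were taken as log2(normalised count + 1) and tested with limma 3.58.1 (R 4.3.3). A single model held the 3 groups and all 6 libraries, with moderated variances that follow intensity (residual degrees of freedom 3, prior 17.3 at the median). Tests were two-sided, with Benjamini-Hochberg adjustment over 16526 genes. The filter removed 14 genes. Alternatives were edgeR 4.0.16 and DESeq2 1.42.0 on recovered reads, other scalings, filters and pseudocounts, a replicate block and leaving out each library. The scripts were tested on simulated data. Every gene of the list is named, with per-library values for the largest changes, the scaffolds, Farsa, Farsb, Gars, Kars, Qars and Dars. The genes, lists and tests were chosen with earlier results of these data known.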

Additional observations from a re-analysis of the deposited data

How the results depend on the processing

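For both guides against control, 33 of the 35 genes called kept their direction and their call under all 16 alternatives; the exceptions were Cars2 and Tars2, given above with Wars2, which gained a call. Scaling shifted the median of all genes by at most 0.06 on the log2 scale. The cytosolic median of 0.58 became 0.67 under quantile normalisation and 0.62 without the 50 most abundant genes. The mitochondrial median of 0.22 was 0.22 and 0.26 under these settings. The number of genes called for PC sg5 against PC sg2 was 40, and it was 65 with pseudocount 5 and with a mean of at least 50 counts, 0 without the intensity trend, 68 with edgeR, 91 with DESeq2, 160 with the replicate block and 10 to 216 when 1 library was left out (216 without PC sg5 replicate 1, 10 and 14 without PC sg2 replicate 2 and replicate 1, 25 and 26 without control replicate 1 and replicate 2). With the replicate block 1 of the 38 genes was called there, Lars2 (-0.16, limma adjusted p 0.000411), and no other call on the 38 genes for this contrast was added. Deviations of same-numbered libraries from their group means correlated at -0.022 to 0.031, so the numbers were not taken to pair the libraries.

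Uncalled values near 0 changed sign without reaching a call, and Eef1b2, called lower at -0.14, lost its call and its direction under 1 setting. Hars2 in PC sg2 against control (0.0027) was -0.025 under quantile normalisation, -0.0025 with TMM, -0.00085 with edgeR and -0.030 to 0.036 with 1 library left out, and Pars2 there was -0.023 to 0.15 with 1 left out. For both guides, quantile normalisation gave 0.030 for Eef1b2 (adjusted p by limma 0.198), 0.0063 for Mtfmt and 0.0029 for Trmu. Without the 50 most abundant genes Mtfmt was 0.0079 and Trmu 0.018. With 1 library left out Mtfmt was -0.077 to 0.0040 and Trmu -0.074 to 0.021. With 2 libraries a group, the spread is poorly known, and the thinly covered genes Pars2, Nars2 and Sars2 have the widest intervals. Leaving out 1 control leaves a single control that is assumed to vary like the other groups.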
